A study of Mus musculus with 4 samples.

Results

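The SLC4 genes encode membrane carriers, most of which move bicarbonate, and 9 of them were followed in the testis: Slc4a1, Slc4a2, Slc4a3, Slc4a4, Slc4a5, Slc4a7, Slc4a8, Slc4a10 and Slc4a11. They are 9 of the 55820 loci in the count table and were found there by gene symbol. The family was taken up because Slc4a8 was higher in the mutant libraries than in the control libraries of these same counts. For that reason the values of Slc4a8 between genotypes are given as a description without a test, and tests are given only for the other 8 genes, which were chosen by family name. Slc4a1 did not pass the filter on low counts, so 8 of the 9 genes were fitted and 7 were tested. The other member of the family was not analysed here.

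RNA was sequenced from whole testes of male C57BL/6J mice at P10 (postnatal day 10), with 2 libraries from control mice and 2 from Mps1sKO mice. Mps1, listed in the table as Ttk, encodes a kinase of the spindle assembly checkpoint, and the study asked which transcripts differ after its loss. In Mps1sKO mice a floxed Mps1 gene is removed by a Cre recombinase under Stra8 control, which per the labels acts in early spermatogonia from P3 and increases until P7. The labels name the other group only as control and do not say whether it carries the floxed allele or the Cre. The labels thus place the deletion in germ cells, whereas each library holds RNA of the whole organ, in which fewer cells of a type and less RNA per cell cannot be told apart. The series names 2 biological replicates per condition, but the sources do not state if a library is 1 mouse or a pool, and p-values measure the spread between these libraries.

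Bicarbonate is the main pH buffer of cells and body fluids, and because it is charged it crosses membranes only through carriers. SLC4 proteins do this in 3 ways, as exchangers that swap bicarbonate for chloride, as cotransporters that carry it with sodium, and as the sodium-driven chloride-bicarbonate exchanger encoded by Slc4a8. In the male tract bicarbonate also acts as a signal, since it switches on the soluble adenylyl cyclase of germ cells, and mice without Slc4a2 are known to be infertile.

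The libraries held 23311689 to 28607746 counts, so that 3 counts, used here as the floor of detection, correspond to between 0.104 and 0.129 CPM (counts per 1000000 counts, scaled between libraries). Ttk had 750 and 940 counts in the control libraries against 302 and 326 in the Mps1sKO libraries, with a log2 fold change of -1.26 (adjusted p = 0.0461, edgeR), and was thus lower in both libraries labelled Mps1sKO. The median log2 fold change over all 20561 tested loci was 0.000268, and 50.1% of them were above 0. Germ cell markers were present throughout, with a summed level of 1108 and 1318 CPM in control and 1004 and 793 CPM in Mps1sKO libraries, whereas the epididymis markers summed to at most 0.259 CPM and Crisp1 among them had no count.

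Related genes can share reads where their sequences are alike, so the stretch of coding sequence in which Slc4a8 and Slc4a4 share their longest identical run is shown with its best ungapped match in 6 other members. It covers 56 bases at chr15:100806340-100806395 (mm10, plus strand) and lies in a coding exon of Slc4a8. Each sequence is written 5′ to 3′ on the strand of its gene, and capitals mark the bases that differ from Slc4a8.
Slc4a8: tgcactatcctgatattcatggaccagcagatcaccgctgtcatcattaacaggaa
Slc4a10: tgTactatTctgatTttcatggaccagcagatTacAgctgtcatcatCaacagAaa
Slc4a4: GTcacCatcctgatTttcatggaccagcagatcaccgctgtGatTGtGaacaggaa
Slc4a7: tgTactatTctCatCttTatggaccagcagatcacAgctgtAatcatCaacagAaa
Slc4a5: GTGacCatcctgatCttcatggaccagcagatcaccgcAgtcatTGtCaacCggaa
Slc4a3: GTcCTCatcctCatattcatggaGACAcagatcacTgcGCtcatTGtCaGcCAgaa
Slc4a2: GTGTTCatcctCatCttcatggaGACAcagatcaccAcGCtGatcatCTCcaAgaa

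Of these 56 bases, Slc4a10 shared 87.5%, Slc4a4 85.7%, Slc4a7 83.9% and Slc4a5 82.1% with Slc4a8. The chloride exchangers were less alike, with 66.1% for Slc4a3, 64.3% for Slc4a2 and 51.8% for Slc4a1, and Slc4a11 had 46.4%. Each share is the best over all positions of a gene's coding transcripts. A low share, as for Slc4a11, can thus come from a site unrelated to the window and is no degree of likeness. The windows of Slc4a1 and Slc4a11 are not printed. Because the window was picked for a run shared with a sodium-coupled gene, these shares are no measure of how the family groups. Over whole transcripts, the longest identical run between Slc4a8 and another member was 29 bases, shared with Slc4a7, followed by 26 bases with Slc4a4 and 23 bases with Slc4a5. All were far shorter than the 150-base reads. No stretch of 50 bases of a Slc4a8 transcript occurred in the transcripts of any other gene, and no annotated gene overlaps Slc4a8.

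Slc4a8 (ENSMUSG00000023032, chr15:100761747-100823968, plus strand) encodes the sodium-driven chloride-bicarbonate exchanger, which is best known from neurons. It had 658 and 734 counts in the control libraries against 1204 and 1101 counts in the Mps1sKO libraries. Both Mps1sKO libraries lay above both control libraries, as in 20.3% of all tested loci. The gene was chosen for this rise, so the separation tests nothing. Scaled to library size, the levels were 24.4 and 25.4 CPM in control and 52.0 and 41.1 CPM in Mps1sKO libraries. This gave means of 24.9 ± 0.718 CPM and 46.5 ± 7.69 CPM (SD, n = 2 each), a ratio of 1.87 and a fitted log2 fold change of 0.90.

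**Figure D1:**
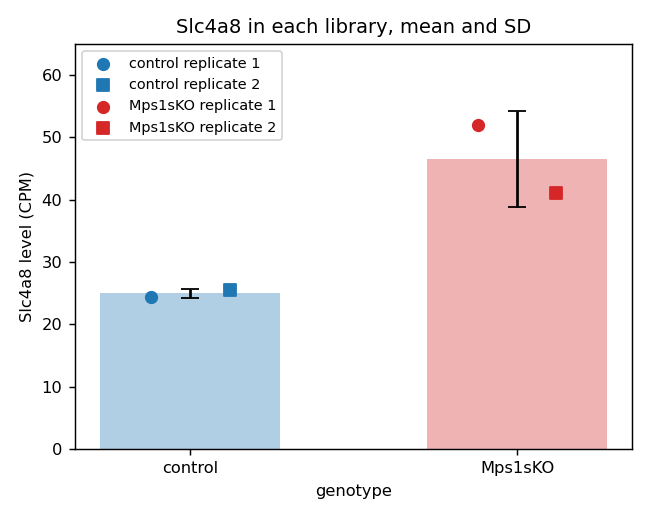
Slc4a8 level in CPM (counts per 1000000) for each library by genotype; bars are means of 2 libraries, whiskers are SD and points are libraries. The control libraries sit at 24.4 and 25.4 CPM and the Mps1sKO libraries at 52.0 and 41.1 CPM, and the mutant libraries lie farther apart than the controls.

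The control libraries differed from each other by 1.04-fold, the Mps1sKO libraries by 1.26-fold, and the lower Mps1sKO library stood 1.61-fold above the higher control library. Without Mps1sKO replicate 1, the log2 fold change was 0.72, and without Mps1sKO replicate 2 it was 1.06. Among all tested loci, 154 had a larger log2 fold change than Slc4a8. A design of 2 libraries against 2 cannot give an exact permutation p below 0.333, and none is given for this gene.

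Markers of cell types differed between the same libraries. All 8 germ cell markers were lower in Mps1sKO testes with an unadjusted p below 0.05, against 5.37% of all tested loci that were lower at that threshold, and their median log2 fold change was -0.44. All 7 tested Sertoli cell markers were higher, with a median log2 fold change of 0.26, and their summed level was 3929 and 4382 CPM in control and 5458 and 4617 CPM in Mps1sKO libraries. Of that list, 2 of 7 passed the unadjusted threshold, Gata4 (log2 fold change 0.38) and Dhh (0.42), against 3.92% of all tested loci that were higher at it. Rhox5 had 1 count in all. No adjusted p in either list was below 0.05 with edgeR after the filter on low counts, whereas DESeq2 gave 2 germ cell markers and 0 Sertoli cell markers. Without that filter, edgeR gave 7 germ cell markers and 3 Sertoli cell markers. With 1 library left out, 5 to 8 of the germ cell markers passed the unadjusted threshold, 5 without control replicate 2 or Mps1sKO replicate 2, and 1 to 5 of the Sertoli cell markers, the most without Mps1sKO replicate 1. Most of the Sertoli sum came from Clu, which was highest in Mps1sKO replicate 1 at 4399 CPM, as Slc4a8 was, whereas the other 6 tested Sertoli cell markers were highest in Mps1sKO replicate 2. The part of the cell mixture in the Slc4a8 values was not tested.

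Since Slc4a8 is known as a neuronal gene, nerve and brain markers were read in the same way. Their 4 tested genes all had log2 fold changes above 0, with a median of 0.16, and 0 of 4 had an unadjusted p below 0.05. The summed level was 150 and 159 CPM in control and 179 and 171 CPM in Mps1sKO libraries. Almost all of it came from Tubb3, a tubulin known from neurons, with 3864 to 4401 counts per library. The sum thus mostly followed that gene and is no measure of nerve content. Whether the Tubb3 RNA came from nerve was not tested. Snap25, a protein of synaptic vesicle release, had 11 and 7 counts in control against 14 and 12 in Mps1sKO libraries, and Gap43, a marker of growing axons, had 8 and 14 and then 8 and 10. Snap25 is among the 4 tested genes, but its control libraries alone would not have let it pass the filter on low counts. Its value above 0 was thus favoured by the filter. Per kilobase of the gene length that the authors list, the mean level was 84.5 CPM for Tubb3, 0.473 for Rbfox3, 0.377 for Syt1, 0.246 for Gap43 and 0.0627 for Snap25. That of Slc4a8 was 2.74 CPM, below Tubb3 and above the others.

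The other marker lists held no gene with an unadjusted p below 0.05. The median log2 fold change was 0.18 for 6 Leydig cell markers, -0.12 for 5 peritubular myoid cell markers, -0.13 for 5 macrophage markers, 0.10 for 5 endothelial markers and 0.041 for 6 tested red blood cell markers.

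To set the members beside each other, CPM values were divided by the gene length that the authors list, which gives CPM per kilobase. For each member this length equals the bases covered by the exons of all its annotated transcripts. It can exceed the length of the transcripts present, and the order and shares below rest on it. On that scale the mean level over the 4 libraries was highest for Slc4a2 at 24.9, followed by Slc4a3 at 14.1, Slc4a7 at 7.31, Slc4a8 at 2.74, Slc4a5 at 2.47, Slc4a11 at 2.07, Slc4a4 at 0.818, Slc4a10 at 0.145 and Slc4a1 at 0.0190. In this order the libraries of Slc4a8 and Slc4a5 overlapped, as did those of Slc4a5 and Slc4a11. Every other pair of neighbours was separated in all 4 libraries. The place of Slc4a8 in this order differed between the genotypes. In control libraries it ranked 6th, at 1.88 and 1.95 CPM per kilobase, below Slc4a5 at 2.31 and 2.66 and Slc4a11 at 2.41 and 2.11, and in Mps1sKO libraries it ranked 4th, at 3.99 and 3.16. Slc4a2 lay above 88.6% of tested loci on this scale and Slc4a8 above 42.5%.

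**Figure D2:**
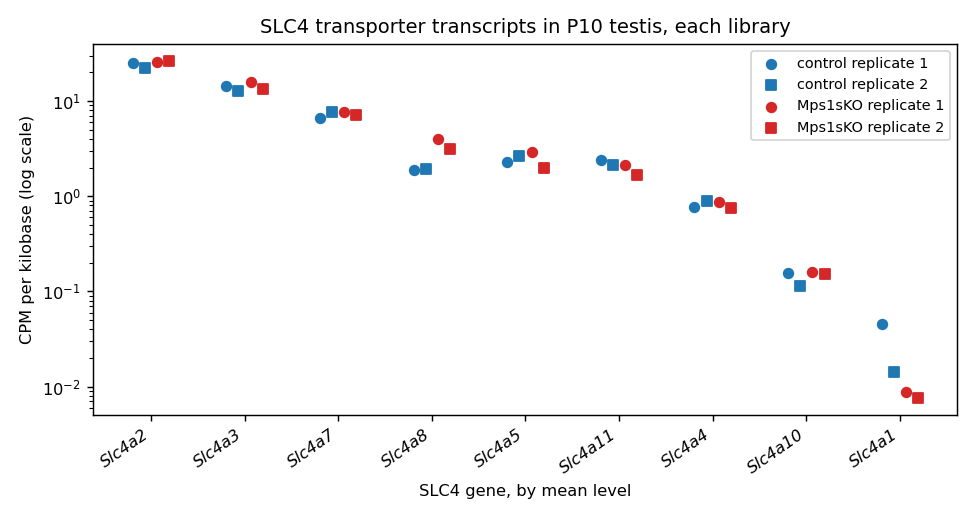
Level of the 9 SLC4 genes in CPM per kilobase of listed gene length, on a log axis, for each of the 4 libraries, ordered by mean. Slc4a2 leads with a mean of 24.9 and Slc4a1 ends the order at 0.0190, and Slc4a8 is the gene whose control and Mps1sKO points are farthest apart among those with more than a few counts.

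Slc4a8 therefore made up a small part of the SLC4 transcripts. Its share of the family's summed level per kilobase was 3.52% and 3.86% in control against 6.71% and 5.77% in Mps1sKO libraries. The sum over the 9 genes was 53.4 and 50.7 CPM per kilobase in control and 59.5 and 54.6 in Mps1sKO libraries. Without Slc4a8 the sums were 51.5 and 48.7 in control against 55.5 and 51.5 in Mps1sKO libraries, so that the second Mps1sKO library then stood level with the first control library. The value per kilobase of Slc4a8 rests on a listed length of 13021 bases, of which 25.7% are coding, over all of its 7 annotated transcripts.

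The chloride-bicarbonate exchangers were the most abundant class. Slc4a2 (chr5:24423837-24440950), the broadly expressed anion exchanger 2, was at 207 and 186 CPM in control and 216 and 220.2 CPM in Mps1sKO libraries. It was the only tested member besides Slc4a8 whose groups did not overlap, but the gap between them was 1.05-fold and the log2 fold change was 0.15 with a standard error of 0.092 (adjusted p = 0.627, edgeR). With 1 library left out it ranged from 0.08 without control replicate 2 to 0.23 without control replicate 1. Of its exon bases, 13.7% are shared with genes on the opposite strand, 1141 of them with Fastk, a gene for a mitochondrial RNA-binding protein. Whether reads were counted by strand is not given in the sources used here, so a part of the Slc4a2 counts cannot be told apart from Fastk.

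Slc4a3 (chr1:75546266-75562172), anion exchanger 3, which is known from heart and brain, was at 123 and 110.2 CPM in control and 135 and 115 CPM in Mps1sKO libraries. The groups overlapped, with a log2 fold change of 0.10 ± 0.109 (SE, adjusted p = 0.80, edgeR). Slc4a1 (chr11:102348824-102366203), the band 3 exchanger of the red cell membrane, had 6 and 2 counts in control against 1 and 1 in Mps1sKO libraries. The exact 95% Poisson interval, which covers counting error only, was 2.20 to 13.1 counts for the first control library. It was 0.0253 to 5.57 counts for each Mps1sKO library, and a difference was not detectable at this depth. The red blood cell markers summed to 82.5 and 74.4 CPM in control and 79.1 and 89.8 CPM in Mps1sKO libraries. Most of that was globin.

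Among the sodium-bicarbonate cotransporters, Slc4a7 (chr14:14702279-14799940), the electroneutral carrier NBCn1, was the most abundant. It was at 101 and 118 CPM in control and 118 and 107 CPM in Mps1sKO libraries, with overlapping groups and a log2 fold change of 0.04 ± 0.106 (SE, adjusted p = 0.932, edgeR). This is the member with the longest identical run with Slc4a8. Slc4a10 (chr2:62046462-62326730), a relative known from choroid plexus and neurons and the closest to Slc4a8 in the window shown, had only 27 and 21 counts in control against 24 and 26 in Mps1sKO libraries. At 0.865 ± 0.194 and 1.00 ± 0.0463 CPM (SD, n = 2 each), its log2 fold change was 0.21 with a wide 95% interval of -0.55 to 0.98 (adjusted p = 0.863, edgeR).

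The electrogenic cotransporters carry more bicarbonate than sodium and so move charge. Slc4a5 (chr6:83219828-83304945), or NBCe2, was at 13.4 and 15.4 CPM in control and 17.0 and 11.5 CPM in Mps1sKO libraries. The Mps1sKO libraries held both the highest and the lowest value, and the log2 fold change was -0.02 ± 0.197 (SE, adjusted p = 0.986, edgeR). Slc4a4 (chr5:88886818-89239653), or NBCe1, the carrier of the kidney proximal tubule, was at 8.28 and 9.53 CPM in control and 9.41 and 8.17 CPM in Mps1sKO libraries, with a log2 fold change of -0.02 ± 0.161 (SE, adjusted p = 0.981, edgeR).

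Slc4a11 (chr2:130684113-130697519) belongs to the family by sequence, although it is known for moving protons and water rather than bicarbonate. It was at 12.03 and 10.54 CPM in control and 10.6 and 8.32 CPM in Mps1sKO libraries, and the first Mps1sKO library overlapped the controls. Its log2 fold change of -0.26 ± 0.169 (SE, adjusted p = 0.649, edgeR) was the lowest of the tested members. With 1 library left out it ranged from -0.09 without Mps1sKO replicate 2 to -0.44 without Mps1sKO replicate 1, and passed an unadjusted p below 0.05 only in the latter case (adjusted p = 0.363, edgeR).

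Thus, of the 7 tested members other than Slc4a8, 4 had a log2 fold change above 0 and 3 below, with a median of 0.040. With edgeR, 0 of 7 had an adjusted p below 0.05, against 0.0292% of all tested loci, and 0 of 7 had an unadjusted p below 0.05, against 9.30%. DESeq2 gave 0 at either threshold as well. None passed the study's cut-offs of a p below 0.01, unadjusted, with a fold over 1.5, which 0.827% of tested loci passed. Both Mps1sKO libraries lay above both controls in 1 of the 7, compared with 20.3% of tested loci, and below them in 0 of 7, compared with 21.1%. The upper bounds of the 95% intervals ranged from 0.13 for Slc4a11 to 0.98 for Slc4a10, and the lower bounds from -0.65 for Slc4a11 to -0.06 for Slc4a2. Differences inside the bounds of a gene are compatible with its counts at this depth and number of libraries.

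**Figure D3:**
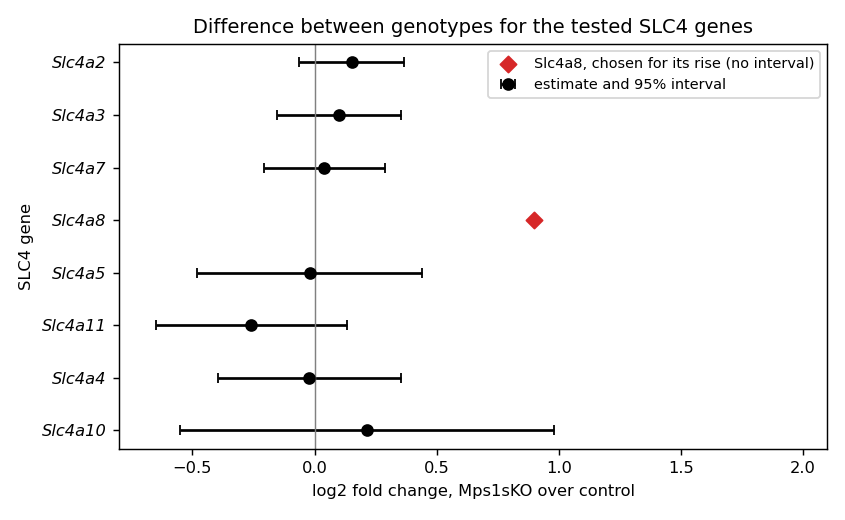
Log2 fold change of Mps1sKO over control for the 8 SLC4 genes that were fitted; points are edgeR estimates and bars are 95% intervals. Slc4a8, at 0.90, was chosen for its rise and has no interval, and the intervals of the other 7 genes all include 0.

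Other genes that make, sense or move bicarbonate and protons were read from 5 lists of 63 genes, of which 54 were tested. With edgeR, 3 of the 54 were higher at an unadjusted p below 0.05 (3.92% of all tested loci) and 5 were lower (5.37%), 14.8% in all compared with 9.30% of all tested loci. The median log2 fold change of the 54 genes was -0.011, and 0 had an adjusted p below 0.05, also with DESeq2, which gave 5 at the unadjusted threshold. Without control replicate 2, the count at that threshold was 2 in place of 8. Of the 7 genes named below for passing it, Car8 passed it with each of the 4 libraries left out in turn, Car3 and Slc26a7 in 3 of the 4 fits, Slc26a8, Slc9a5 and Adcy10 in 2 and Slc26a2 in 0.

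Carbonic anhydrases interconvert carbon dioxide and bicarbonate and so feed the SLC4 carriers. Of 13 tested genes, 5 were above and 8 below 0, with a median log2 fold change of -0.016, and 2 were lower with an unadjusted p below 0.05. The genes above 0 include Car6, with 22 and 10 counts in control against 18 and 26 in Mps1sKO libraries. Its control libraries alone would not have let Car6 pass the filter on low counts. Car8, a family member without enzyme activity, had 67 and 68 counts in control against 30 and 26 in Mps1sKO libraries, with a log2 fold change of -1.10 (adjusted p = 0.494, edgeR). Car3, an enzyme of muscle and fat, had 14 and 117 counts in control against 8 and 4 in Mps1sKO libraries. Car3 passed the filter on low counts only through the control libraries, where it is high, and the counts of lower genes include it. Its log2 fold change of -3.23 (adjusted p = 0.494, edgeR) rested on control replicate 2, without which it was -1.09 and did not pass the unadjusted threshold. The highest levels per kilobase were those of Car5b, a mitochondrial enzyme, at 5.44 CPM, Car11 at 3.40 CPM and Car14 at 1.63 CPM, and the log2 fold changes of these genes were -0.02, -0.23 and -0.01.

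The SLC26 genes encode the other family of anion exchangers, several of which carry bicarbonate. Of 9 tested genes, 5 were above and 4 below 0, with a median log2 fold change of 0.16. Slc26a7, an anion exchanger and chloride channel, was at 44.96 CPM per kilobase the most abundant gene of the list, and its mean exceeded that of every SLC4 member. It had 6452 and 5748 counts in control against 6257 and 7176 in Mps1sKO libraries, or 219 ± 28.5 and 269 ± 1.59 CPM (SD, n = 2 each), and the log2 fold change was 0.29 (adjusted p = 0.51, edgeR). It was 0.17 without control replicate 2, where it did not pass the unadjusted threshold, and 0.43 without control replicate 1. Slc26a2, a sulfate carrier, was at 60.4 ± 4.02 CPM in control and 70.9 ± 1.76 CPM in Mps1sKO testes (log2 fold change 0.23, adjusted p = 0.527, edgeR). Slc26a8, an anion carrier of male germ cells, went the other way with 171 and 234 counts in control against 129 and 124 in Mps1sKO libraries (log2 fold change -0.51, adjusted p = 0.519, edgeR), as the germ cell markers did. Its log2 fold change was -0.32 without control replicate 2 and -0.38 without Mps1sKO replicate 2, and neither passed the unadjusted threshold. Slc26a11, at 9.72 CPM per kilobase, did not pass the unadjusted threshold.

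The SLC9 list holds sodium-proton exchangers, which remove acid where the SLC4 carriers bring in base. Of 13 tested genes, 4 were above and 9 below 0, with a median log2 fold change of -0.11. Slc9a5, an exchanger known from brain, had 498 and 547 counts in control against 334 and 383 in Mps1sKO libraries and was the only gene of the list past the unadjusted threshold (log2 fold change -0.38, adjusted p = 0.494, edgeR). The scaffold genes Slc9a3r2 and Slc9a3r1 were at 13.0 and 12.3 CPM per kilobase, and Slc9c1, an exchanger of sperm, had no count.

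For bicarbonate sensing and the regulators of the carriers, 11 of 11 genes were tested, 5 above and 6 below 0, with a median log2 fold change of -0.031. Adcy10, the bicarbonate-activated adenylyl cyclase, had 130 and 150 counts in control against 88 and 83 in Mps1sKO libraries, with a log2 fold change of -0.54 (adjusted p = 0.507, edgeR). The most abundant regulators were Ahcyl1, which binds sodium-bicarbonate cotransporters, at 35.8 CPM per kilobase, and the kinases Oxsr1 and Wnk1 at 22.3 and 21.5 CPM per kilobase. Their log2 fold changes were 0.06, -0.16 and 0.05, none with an unadjusted p below 0.05.

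Of the membrane partners of Slc4a1 in red cells, 8 of 11 were tested, 6 above and 2 below 0, with a median log2 fold change of 0.084. Add1, a cytoskeletal adducin found in most cells, was the most abundant at 33.3 CPM per kilobase, with a log2 fold change of 0.11 (adjusted p = 0.722, edgeR). Epb42 and Rhag, which sit with band 3 in the red cell membrane, had at most 4 counts and 1 count in any library.

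**Figure D4:**
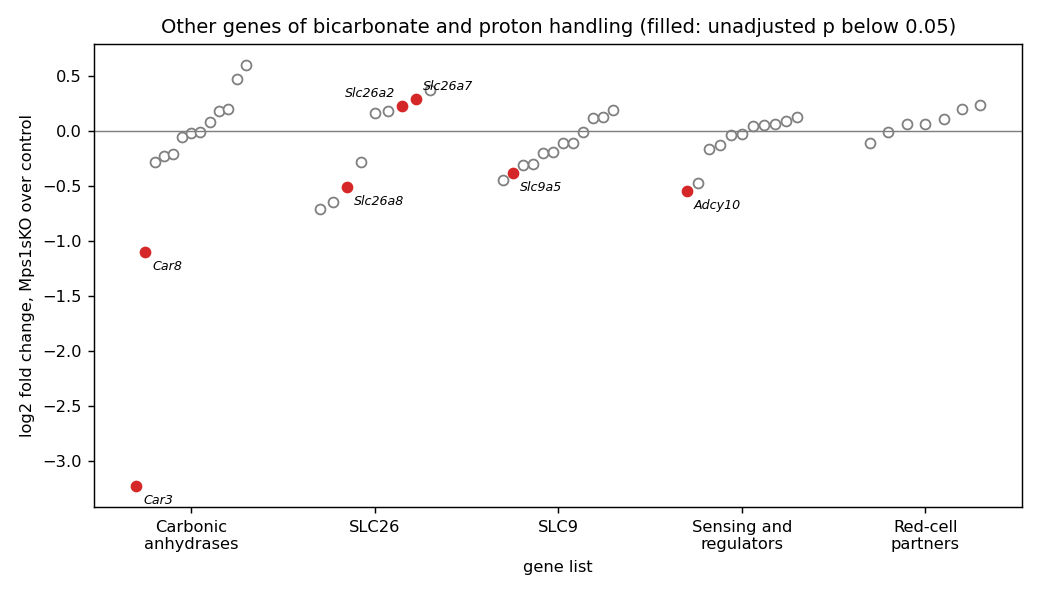
Log2 fold change of Mps1sKO over control for 52 tested genes of bicarbonate and proton handling, in 5 lists; each point is a gene, and filled points have an unadjusted p below 0.05 in edgeR. The 7 filled genes are 2 above 0 and 5 below 0, and most points lie near 0.

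Position along the chromosome was not used to choose the family. Within 500000 bases on either side of Slc4a8, 31 other loci were tested, of which 11 had a log2 fold change above 0 and 20 below, with a median of -0.032. Of these, 1 was higher and 5 were lower with an unadjusted p below 0.05, a share of 19.4% beside 9.30% of all tested loci. The nearest tested locus on one side was Galnt6, an enzyme that starts mucin-type O-glycosylation, 32371 bases before the start of Slc4a8. It had 612 and 843 counts in control against 392 and 370 in Mps1sKO libraries, with a log2 fold change of -0.76 (adjusted p = 0.494, edgeR). On the other side was Scn8a, a neuronal sodium channel, 45890 bases beyond the end of Slc4a8. It had 244 and 266 counts in control against 151 and 164 in Mps1sKO libraries, with a log2 fold change of -0.53 (adjusted p = 0.494, edgeR). Both genes next to Slc4a8 thus had a difference of the opposite sign.

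**Figure D5:**
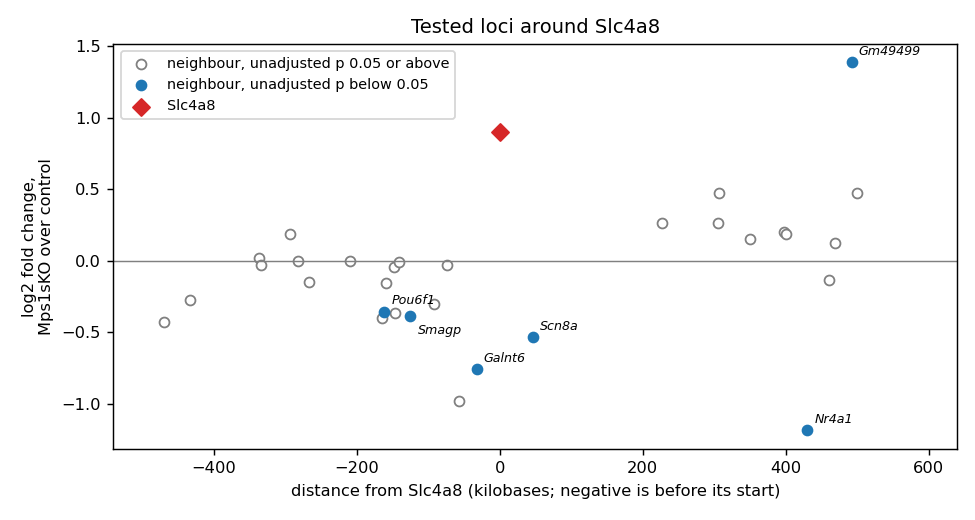
Log2 fold change of Mps1sKO over control for the tested loci within 500000 bases of Slc4a8, plotted by distance in kilobases from the gene, with Slc4a8 at 0. The nearest neighbours Galnt6 and Scn8a lie at -0.76 and -0.53, below 0, whereas Slc4a8 lies at 0.90.

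None of the 31 had an adjusted p below 0.05 with edgeR, whereas DESeq2 gave 1, Galnt6 (adjusted p = 0.0474). Besides Galnt6, Gm49499, a locus 492134 bases beyond Slc4a8 with 12 and 13 counts in control against 27 and 32 in Mps1sKO libraries, passed the study's cut-offs with a log2 fold change of 1.39 (adjusted p = 0.494, edgeR). Around all 9 members together, 213 loci were tested, and 24 had an unadjusted p below 0.05, 7 higher and 17 lower, a share of 11.3%. Without control replicate 2 the count was 11. Those past the study's cut-offs near other members were M1ap, a gene of meiosis, near Slc4a5 (log2 fold change -0.66) and near Slc4a1 the meiotic gene Meioc (-0.90) and a locus without an annotated identifier (-1.73). None of the 213 had an adjusted p below 0.05 with edgeR, whereas DESeq2 gave 2, Galnt6 and Meioc (adjusted p = 0.0016).

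The genes whose pattern over the 4 libraries was most like that of Slc4a8 were found by the Euclidean distance between log2 CPM values centred on each gene's mean. The closest were Gm37084 at a distance of 0.0994, Cd52, a surface protein of leukocytes, at 0.114, Gm18600 at 0.126, Gm45925 at 0.129 and G530011O06Rik at 0.138. The search used the contrast that chose Slc4a8, so a shared rise was built in and the list is a description only. All had low counts, from 5 to 42 per library. Gm18600 had 5 and 6 counts in control against 11 and 11 in Mps1sKO libraries, and Gm45925 had 8 and 9 against 16 and 13. These 2 loci passed the filter on low counts only through the Mps1sKO libraries, where they are high. Cd52, for instance, had 21 and 24 counts in control against 42 and 34 in Mps1sKO libraries. None of the 7 other tested SLC4 genes was among these 5, which says nothing about the family, since Slc4a8 was chosen for its rise. Slc4a1 could not appear, since only loci that passed the filter were compared.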

How the data were processed

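Whole testes at P10 were sequenced in 4 libraries as 150-base paired reads of NEBNext Ultra libraries. The submitters' processing notes name HISAT2 2.0.5, featureCounts, DESeq2 1.16.1 and mm10. The annotation and the strand setting are not given in the sources used here. The authors deposited raw counts for each locus without normalization, with FPKM values, which were proportional to count over listed length within each library and served as a check of the units. The coordinates of all 55536 annotated loci equal those of GENCODE M21 (GRCm38), from which exons and sequences were read.

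Groups follow the genotype labels. The test was the two-sided quasi-likelihood test of edgeR 4.0.16 (R 4.3.3) on the counts of all 4 libraries, after filterByExpr (20561 loci kept) and TMM scaling (factors 0.990 to 1.01). The fit had a common biological coefficient of variation of 0.106 and 5.64 prior degrees of freedom. p was adjusted over all tested loci by the Benjamini-Hochberg method. The 95% intervals use the standard error and the degrees of freedom of the fit. CPM values are counts per 1000000 counts on the kept loci, scaled by the TMM factor. The scripts were tested on simulated data.

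The members, gene lists and tests were chosen with earlier results of these data known. The genes named are the 9 members, Ttk, the genes of each list with an unadjusted p below 0.05 and up to 3 others with the highest level per length, the nearest neighbours of Slc4a8, neighbours past the study's cut-offs, and the 5 genes most like Slc4a8. Genes of the lists that are not reported here by name are included in the counts and medians of their lists, but not plotted. Other genes named with their counts were chosen after their values were seen. Alternatives were DESeq2 1.42.0, edgeR with the size factors of DESeq2 or with unscaled library sizes, keeping every counted locus, a minimum of 10 counts per library, a replicate block, and leaving out 1 library at a time.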

Additional observations from a re-analysis of the deposited data

How the results depend on the processing

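The log2 fold change of Slc4a8 ran from 0.72 to 1.06 when 1 library was omitted, the lowest without Mps1sKO replicate 1, and moved less under every other alternative. The count of other SLC4 genes with an unadjusted p below 0.05 was 0 to 1 with a library left out, and 0 under the other alternatives except a crossed pairing. The acid-base count of 8 became 5 with DESeq2, 5 with the replicate number as a block and 2 to 10 with a library left out, and the neighbour count of 24 became 13, 15 and 11 to 30. Same-numbered libraries deviated with a correlation of -0.19, so the numbers were not taken as pairs. The crossed pairing, chosen after seeing the data, gave 1, 14 and 38 for these 3 counts. Ttk was at -1.27 (adjusted p = 0.0573) with at least 10 counts in every library and at -1.26 (adjusted p = 0.224) with the replicate block. Over all loci, 6 had an adjusted p below 0.05, against 37 with DESeq2, 390 without a filter, 3 with at least 10 counts, 2 with the block, 17 to 199 with a library left out and 550 with the crossed pairing.

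Single genes kept their direction in 156 of 164 values. That count includes acid-base genes picked for an unadjusted p below 0.05 in these same data, which were unlikely to change sign. All 8 reversals were in SLC4 members with 1 library left out. With 1 library left out, the log2 fold change ranged from -0.017 to 0.21 for Slc4a3, from -0.12 to 0.084 for Slc4a4, from -0.33 to 0.24 for Slc4a5, from -0.067 to 0.15 for Slc4a7 and from -0.0021 to 0.46 for Slc4a10, and these 5 genes changed sign in that range. The cause was not tested. Car3 and Car8 had an adjusted p below 0.05 without a filter on low counts, and Car3 also without control replicate 1. With 2 libraries a group, the 24.9 CPM of Slc4a8 in control rests on at least 658 counts, whereas Slc4a1 and Slc4a10 are limited by depth.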
